A study of Mus musculus with 12 samples.

Results

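The Shank, Homer and Dlgap genes encode the inner layers of the postsynaptic scaffold, and 10 of them were examined here: Shank1, Shank2, Shank3, Homer1, Homer2, Homer3, Dlgap1, Dlgap2, Dlgap3 and Dlgap4. They were taken by name, out of 49997 genes in a RefSeq table of the mouse build GRCm38.p6. A peak was assigned to a gene when its summit, the base of highest coverage, lay between the outer ends of that gene's span. By this rule 145 of the 23413 peaks in the study fell in these genes (0.619%), and they merged into 65 of the study's 13572 regions.

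The study mapped m1A, an adenosine methylated on its base-pairing face, by pulling fragmented RNA down with an m1A antibody and sequencing it. The tissue was the caudate putamen (CPu, the dorsal striatum) of adult male mice in which both Tet1 alleles are flanked by loxP sites, labelled Tet1 fl/fl. Control mice received AAV-EGFP in the CPu, and knockout (KO) mice received AAV-Cre-EGFP there, which gives the genotype labelled Tet1 delta/delta. Both groups therefore carried the floxed alleles and a virus, and the region was dissected 2 weeks later. The 12 samples were 3 pull-downs with 3 matched inputs in each group, and each pull-down gave 1 peak list, called by the authors against its own input. Nothing in the labels says whether numbered libraries came from different animals, so a p-value over libraries covers only the spread between them, which may be technical. The labels name neither the promoter that drives Cre nor the share of cells infected, and whole tissue was used, so cells that kept Tet1 may be included. TET1, an enzyme that oxidises methylated cytosine in DNA, was the factor removed, and the comparison asked where in the transcriptome its loss goes with a change in m1A.

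These scaffold proteins stack below the membrane of excitatory synapses. Dlgap proteins bind the Dlg family, which holds glutamate receptors and adhesion molecules, and Shank proteins bind Dlgap. Homer proteins link Shank to group I metabotropic glutamate receptors and to calcium channels of the endoplasmic reticulum. In the striatum the spines of medium spiny neurons carry this scaffold, and Shank3 and Dlgap3 are known there from mouse mutants that groom compulsively.

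The pull-downs differed in depth and in how they were called. The caller used 459332 to 1097292 tags in the controls and 1235247 to 2508102 in the KO libraries, with no overlap between the genotypes. Control 1 was the shallowest and the only one called with all duplicate tags kept, and its median pileup was 4 against 17 to 19 elsewhere. KO 2 was the deepest and had 6947 peaks, against 3004 to 3782 in the other libraries. Tet1 had no peak in any list, which checks nothing, because a peak list gives no level for a transcript outside its peaks. Among protein-coding genes, 26.2% had a peak in any library and 2.30% had one in all 6. Of 10 medium spiny neuron markers, 8 had a peak and 4 had one in all 6 libraries (Adcy5, Gng7, Pde10a and Ppp1r1b), while Drd1 and Tac1 had none. Peaks were also called in 3 of 5 astrocyte, 4 of 5 oligodendrocyte, 1 of 5 microglia and 3 of 5 cortical excitatory neuron markers. Mbp (oligodendrocyte) and Slc17a7 (cortical excitatory neuron) had one in all 6 libraries too. In controls 1, 2 and 3 and then KO 1, 2 and 3, oligodendrocyte markers with a peak numbered 1, 4, 4, 4, 4 and 3, and astrocyte markers 0, 2, 2, 1, 2 and 2. Cortical excitatory neuron markers numbered 1, 2, 2, 1, 2 and 1 in the same order. Microglia markers numbered 0 in every library but KO 2, which had 1 (Cx3cr1). The part of other cell types in the results on the scaffold genes was not tested.

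Peaks were found in 8 of the 10 scaffold genes, and in 5 of them (Shank1, Shank3, Homer1, Dlgap2 and Dlgap4) every library had at least 1. Among protein-coding genes the shares were 26.2% and 2.30%. The scaffold genes are long, with a median span of 104 kb against 17.1 kb for protein-coding genes, and the part of length in these counts was not tested. Dlgap1 lacked a peak only in KO 3 and Dlgap3 only in control 1. Shank2 had a peak in KO 1 and KO 3 alone. Homer2 and Homer3 had no peak in any of the 6 libraries, over spans of 106 kb (chr7:81600481-81706925, minus strand) and 11.5 kb (chr8:70282880-70294361, plus strand). An absent peak means that the caller's threshold was not met at that depth, and does not show that m1A or the transcript was absent.

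The number of scaffold genes with a peak was 6, 7 and 7 in controls 1, 2 and 3 and 8, 7 and 7 in KO 1, 2 and 3. Their peaks numbered 20, 24 and 20 in the controls and 20, 46 and 15 in the KO libraries, or 21.3 ± 2.31 against 27 ± 16.6 (SD, n = 3 libraries each). KO 2 held both the most scaffold peaks and the most peaks in all. Per 1000 peaks in the library the same numbers were 6.29, 6.97 and 6.66 in the controls and 5.29, 6.62 and 4.91 in the KO libraries. These shares overlapped, since KO 2 lay above control 1.

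**Figure D1:**
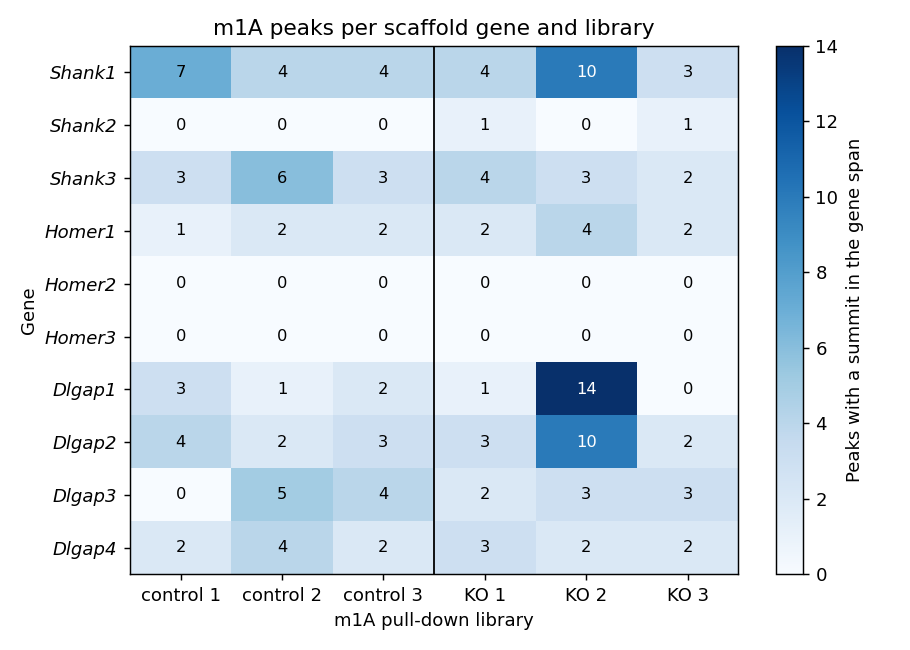
Number of m1A peaks with a summit in each of the 10 scaffold genes (rows) in each pull-down library (columns, controls left of the line, KO libraries right of it), with the colour scale in peaks. Homer2 and Homer3 are at 0 throughout, and KO 2 has the highest numbers for Dlgap1 (14), Dlgap2 (10) and Shank1 (10).

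No scaffold gene separated the genotypes by its number of peaks. Numbers of peaks were compared by an exact permutation test (two-sided, over the 20 ways to split 6 libraries into groups of 3), run on all 6658 genes with a peak and adjusted by Benjamini-Hochberg. The smallest p this design allows is 0.1, so no gene could pass 0.05, and 0 genes did after adjustment. In all, 3.36% of genes reached the smallest p, and 0 of the 8 scaffold genes did. The KO libraries all exceeded the controls for 2.42% of genes and the reverse held for 0.946%, and again 0 of the 8 were among either. Their exact permutation p-values ran from 0.4 (Shank2) to 1 (Shank1, Dlgap1, Dlgap3 and Dlgap4), and each was 1 after adjustment.

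Of the 65 scaffold regions, 5 were called in all 6 libraries (7.69%, against 2.96% of all regions) and 13 in 4 or more (20%, against 11.1%). Another 41 were called in a single library (63.1%, against 69.0%). KO 2 alone accounted for 26 of those 41, or 40% of the scaffold regions against 32.9% of all regions. Control 1 alone gave 6, KO 1 alone 5, control 2 alone 4, and control 3 and KO 3 none. No scaffold region was present in all 3 KO and absent from all 3 control libraries (1.41% of all regions were), and none showed the opposite pattern (0.796%). The median fold enrichment of scaffold peaks was 6.87, close to the 6.94 of all peaks, and it ranged from 2.89 to 34.8. Fold enrichment is the authors' own value for each peak, the pull-down coverage at the summit (the pileup) over the local background that the caller derived from the input.

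**Figure D2:**
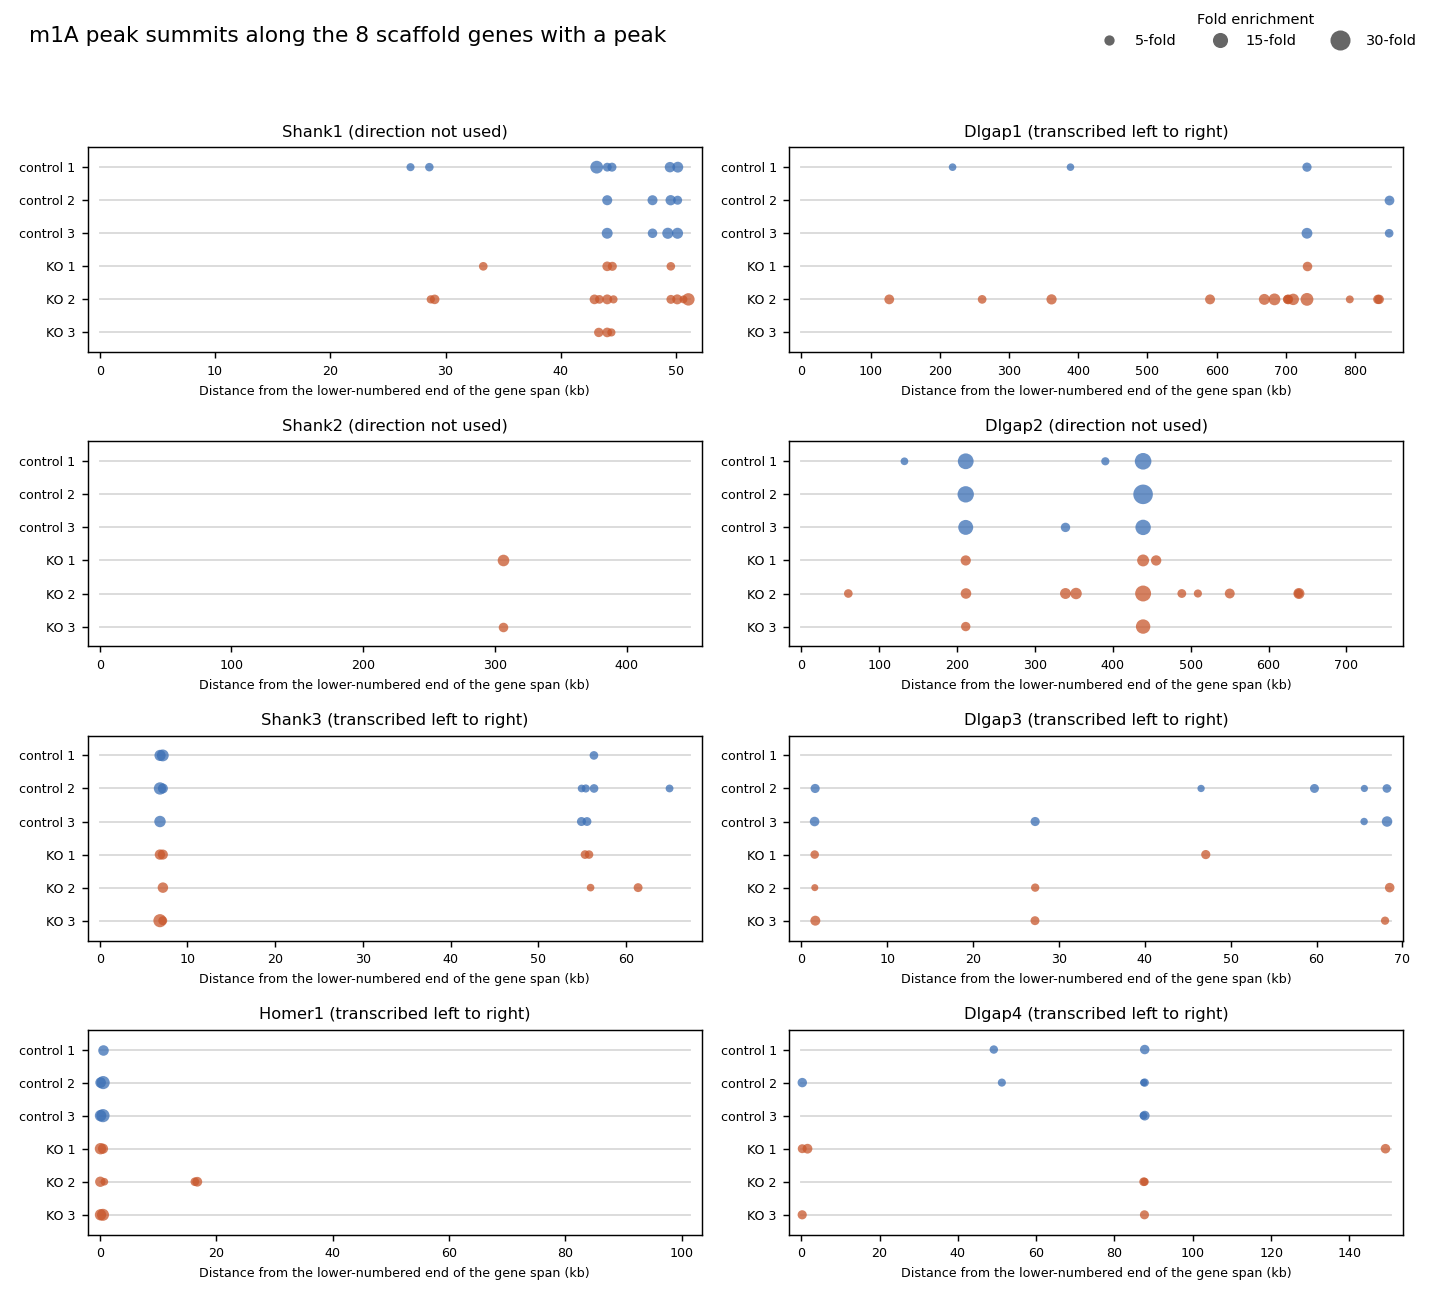
Peak summits along the 8 scaffold genes that had peaks, as distance in kb from the lower-numbered end of the gene span, with 1 line per library (controls blue, KO red) and point size for fold enrichment. Homer1 summits gather at the gene's start in every library, Shank1 summits lie mostly in the upper part of its span, and the scattered points of Dlgap1 come largely from KO 2.

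Shank1, the Shank protein found mainly in brain, had the densest marking of the set, with 10 regions and 32 peaks in 51.2 kb (chr7:44308916-44360094), or 19.5 regions per 100 kb. It had 7, 4 and 4 peaks in controls 1, 2 and 3 and 4, 10 and 3 in KO 1, 2 and 3, and the groups overlapped. Its direction was not in the tables used here, so positions are given from the lower- or upper-numbered end of the span. The widest region, chr7:44351558-44353633, held 14 of the 32 peaks and was called in every library. Its strongest fold enrichment was 13.8, 7.81 and 9.60 in controls 1, 2 and 3 and 7.08, 7.49 and 7.08 in KO 1, 2 and 3, so every control lay above every KO library. That order rests on which summit was taken. In 5 libraries the strongest summit lay between 44352931 and 44352936, but in control 1 it lay at 44352023, and with the peak nearest the shared summit the groups overlapped and the difference of the means fell from 3.19 to 0.459.

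Shank1 had 5 more regions between this one and the upper-numbered end, 2 of them in 4 or more libraries. The region chr7:44358056-44358571 had its strongest summit, that of control 3, 1905 bp from that end. Its fold was 8.65, 8.30 and 10.0 in the controls, 5.23 in KO 1 and 5.81 in KO 2, with no call in KO 3. The summit of control 3 lay at 44358189 and those of the other libraries at 44358376 to 44358456, so the 10.0 is not from their shared site. The next region, chr7:44358888-44359218, lay 1062 bp from the end. Its fold was 9.47, 5.99 and 9.85 in the controls and 7.71 in KO 2, with no call in KO 1 or KO 3. The outermost regions, chr7:44359477-44359712 and chr7:44359862-44360074, were called in KO 2 alone, the last at a fold of 12.99. The 7 regions of Shank1 other than the 3 in 4 or more libraries were each called in at most 2 libraries, at folds of 4.11 to 12.99, and 3 of them came from KO 2 alone.

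Shank2, a scaffold that is also known from neurodevelopmental disease, had a single region in 448 kb (chr7:143978077-144426043). The region chr7:144284460-144284649 was called in KO 1 (fold 11.05, pileup 22) and KO 3 (fold 6.89, pileup 15) and in no control, with summits 10 bp apart. KO 2, the deepest library, did not call it, so it was not shared by the KO group. The exact permutation p for its number of peaks was 0.4. At this region the caller's background, expressed as input tags, was 3.26 in KO 1 and 4 in KO 3.

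Shank3, the member of its family most studied in the striatum, had 6 regions in 67.2 kb (chr15:89493013-89560261, plus strand). Peaks numbered 3, 6 and 3 in controls 1, 2 and 3 and 4, 3 and 2 in KO 1, 2 and 3, with overlap. One region was called everywhere, chr15:89499777-89500301, just inside the transcribed side of the annotated start at 89499608. Its strongest summit lay 6868 bp from the upstream end of the gene span, so this start is inside the span. The sequence around this start is shown because the region begins 169 bp after it. It is from RefSeq (GRCm38.p6), chr15:89499358-89499637 on the plus strand, with upstream bases in lower case and the first 30 transcribed bases in capitals.
Shank3: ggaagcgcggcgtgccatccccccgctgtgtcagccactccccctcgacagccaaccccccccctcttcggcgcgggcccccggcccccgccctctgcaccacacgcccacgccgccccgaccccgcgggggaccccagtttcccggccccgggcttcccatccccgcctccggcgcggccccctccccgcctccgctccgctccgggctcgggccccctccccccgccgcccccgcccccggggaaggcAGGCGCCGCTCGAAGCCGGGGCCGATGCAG
The 300-base window at this start was 81.0% G and C and held 40 CpG, which put its G and C content at the 99.3 percentile of 32851 such windows. The median window had 52.7% and 7 CpG.

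Within that Shank3 region the summits fell at 2 positions about 300 bp apart. The first, at 89499875 to 89499893, was a summit in every library except KO 2, with folds of 10.2, 12.7 and 10.7 in the controls, 8.36 in KO 1 and 14.7 in KO 3. The second, at 89500203 to 89500217, was a summit in every library except control 3, whose single peak of 498 bp covers both positions, with folds of 11.7 and 7.66 in controls 1 and 2 and 7.94, 8.67 and 5.72 in KO 1, 2 and 3. Taking the strongest peak of the region, the controls gave 11.7, 12.7 and 10.7 and the KO libraries 8.36, 8.67 and 14.7. The groups overlapped, because KO 3 was the highest of all. The other Shank3 region called in 4 libraries, chr15:89548248-89549014, had its strongest summit 11715 bp before the 3′ end. Its fold was 4.47 and 5.66 in controls 2 and 3 and 5.42 and 3.75 in KO 1 and 2. The peaks of KO 1 and KO 2 did not overlap there and were joined only through the longer peak of control 2. The remaining 4 Shank3 regions were in at most 2 libraries each, with folds of 3.90 to 5.93.

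Homer1 had its recurrent peaks at the transcription start. Homer1 encodes both the long scaffold form, which multimerises and bridges receptors, and the short activity-induced form Homer1a, which lacks the multimerising part. Peaks numbered 1, 2 and 2 in controls 1, 2 and 3 and 2, 4 and 2 in KO 1, 2 and 3, in a span of 101 kb (chr13:93303757-93405129, plus strand). The sequence at the start is shown because the first region begins only 28 bp after it. It is from RefSeq (GRCm38.p6), chr13:93303507-93303786 on the plus strand, again with the first 30 transcribed bases in capitals.
Homer1: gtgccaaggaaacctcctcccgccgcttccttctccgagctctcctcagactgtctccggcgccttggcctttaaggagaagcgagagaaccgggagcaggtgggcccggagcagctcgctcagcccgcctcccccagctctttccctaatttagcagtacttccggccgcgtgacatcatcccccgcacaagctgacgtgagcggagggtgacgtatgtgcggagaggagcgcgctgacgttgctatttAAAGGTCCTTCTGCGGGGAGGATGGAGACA
The window was 63.0% G and C with 26 CpG. The letters TGACGT, searched on both strands without counting overlap with other motifs, occurred 3 times in it. Of the 32851 windows of the same length, 7.51% held them at least once and 0.201% at least 3 times.

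The first Homer1 region, chr13:93303785-93303992, had its strongest summit 153 bp after the start. Fold enrichment was 8.91 and 10.8 in controls 2 and 3 and 10.57, 8.43 and 10.50 in KO 1, 2 and 3, and control 1 had no call. These values interleaved between the genotypes. The second region, chr13:93304073-93304707, was called in all 6 libraries and was strongest 564 bp after the start. Its fold was 8.80, 14.7 and 14.8 in controls 1, 2 and 3 and 7.97, 3.71 and 11.9 in KO 1, 2 and 3. Controls 2 and 3 lay above every KO library (as 29.1% of the 402 regions in all 6 libraries did), while control 1 lay below KO 3. KO 2 gave the lowest value, and its summit at 93304562 lay downstream of the others, which fell between 93304321 and 93304351. The 2 further Homer1 regions were called in KO 2 alone, at folds of 5.26 and 7.31, about 16 kb into the gene. Both recurrent regions lay ahead of the place where the transcripts of Homer1 and Homer1a part, which is known to be in the later part of the gene, so the peaks could not be assigned to either form.

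**Figure D3:**
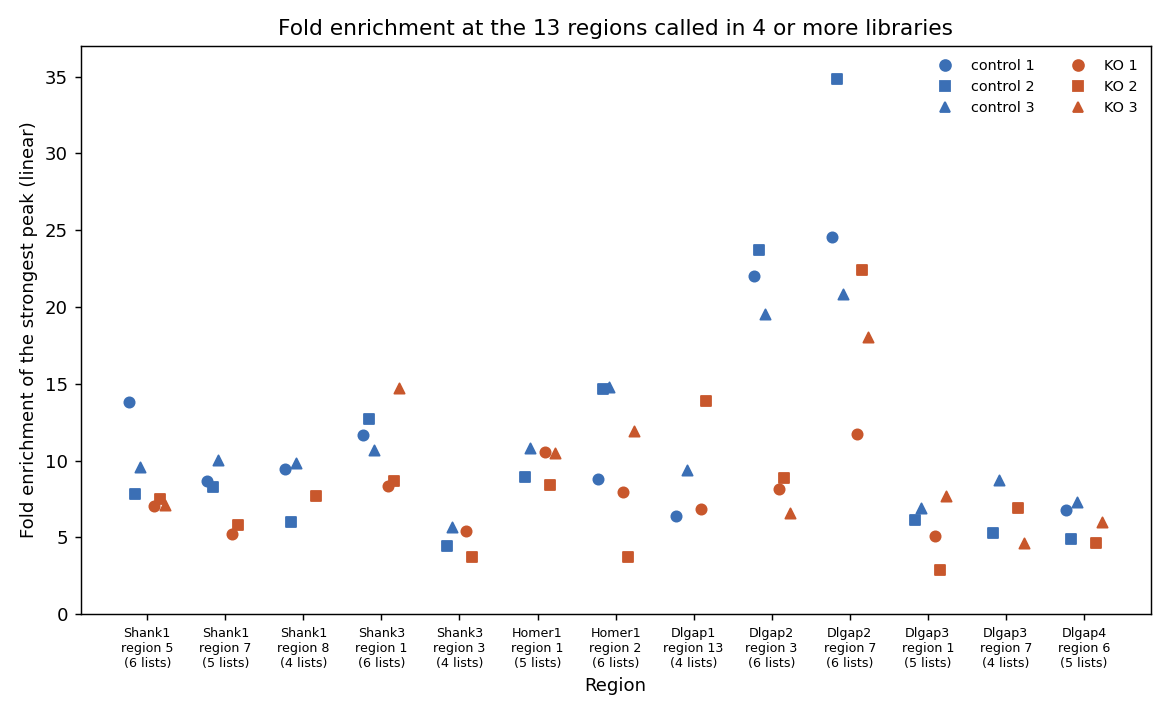
Fold enrichment (linear axis, strongest peak of the region) in each library at the 13 scaffold regions called in 4 or more libraries, with controls in blue and KO libraries in red. Dlgap2 region 3 shows the widest gap, 19.6 to 23.7 in the controls and 6.56 to 8.86 in the KO libraries, and at most other regions the symbols interleave.

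Dlgap2 carried the highest folds of the set. Dlgap2 is a neuronal member of its family, and 13 regions were spread over its 758 kb (chr8:14095776-14853426), with 4, 2 and 3 peaks in controls 1, 2 and 3 and 3, 10 and 2 in KO 1, 2 and 3. Its only regions in 4 or more libraries were called in all 6, and 1 more was called in control 3 (6.61) and KO 2 (9.60). The first, chr8:14306728-14307403, lay 211 kb from the lower-numbered end. Its fold was 22.0, 23.7 and 19.6 in controls 1, 2 and 3 and 8.16, 8.86 and 6.56 in KO 1, 2 and 3, so the lowest control was well above the highest KO library. The means were 21.8 ± 2.09 and 7.86 ± 1.18 (SD, n = 3 each), a ratio of 2.77. Within their own lists the controls ranked at the 98.0, 98.6 and 97.8 percentiles by fold and the KO libraries at the 64.7, 71.7 and 34.3. The other libraries shared a summit between 14306897 and 14306929, while KO 2 had its summit at 14307241.

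Folds that separate the genotypes in this direction were not rare. Of the 402 regions called in all 6 libraries, 16.2% had every control above every KO library, and 2.74% had the opposite. Among the 5 scaffold regions this held for the first Dlgap2 region and, with the strongest peaks only, for Shank1. With summits joined within 100 bp in place of overlapping regions, 2 scaffold sites were called in all 6 libraries, 1 in Shank1 and the second of Dlgap2 (2.27% of all sites were), and neither had every control above every KO library (15.3% of such sites did). The first Dlgap2 site was then missing from KO 2, and its values in the remaining libraries are those given above.

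The second recurrent Dlgap2 region, chr8:14534491-14534949, 439 kb from the lower end, held the highest fold of any scaffold peak. Its fold was 24.6, 34.8 and 20.9 in controls 1, 2 and 3 and 11.8, 22.4 and 18.1 in KO 1, 2 and 3. All 6 summits lay within 38 bp. The means were 26.8 ± 7.23 and 17.4 ± 5.36, and the groups overlapped because KO 2 exceeded control 3. In 5 of the libraries the peak stood above the 96 percentile of its list, and in KO 1 at the 88.2. The other 11 Dlgap2 regions had folds of 3.84 to 10.7, and 7 of them were called in KO 2 alone.

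A fold is a ratio, so its 2 terms were set apart at the regions called in all 6 libraries. The local background was recovered from the deposited pileup and fold, and it is given scaled to 1000000 input tags, with the pileup scaled to 1000000 pull-down tags. At the first Dlgap2 region the pileup was 39, 108 and 81 in controls 1, 2 and 3 and 64, 170 and 62 in KO 1, 2 and 3, which is 92.4 ± 6.86 and 55.3 ± 11.1 when scaled. Every control lay above every KO library, but this held at 50.7% of the 402 regions and at each of the 5 scaffold regions. The scaled background at the same region was 2.92 ± 1.00 in the controls and 6.46 ± 0.827 in the KO libraries, with every KO library above every control, which held at 13.9% of regions. Expressed as input tags, this background was 11.2, 14 and 18.9 in controls 1, 2 and 3 and 21, 38 and 26 in KO 1, 2 and 3. A value that is not whole is not a count at the summit and can come from a wider window (1000 or 10000 bp). Which window gave each value was not determined. The lower fold in the KO libraries thus went with a lower scaled pull-down coverage and a higher scaled background there. In whole tissue, a shift in input coverage from a change in the number of cells of a type cannot be told apart from one in RNA per cell.

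The second Dlgap2 region showed the same arrangement at lower coverage. Pileup was 30, 53 and 34 in controls 1, 2 and 3 and 42, 97 and 41 in KO 1, 2 and 3, or 51.0 ± 13.2 and 34.5 ± 4.02 when scaled. Its scaled background was 0.618 ± 0.147 in the controls and 1.49 ± 0.594 in the KO libraries, without overlap. Expressed as input tags it was 3.59, 2.14 and 4 in the controls and 8, 7 and 4 in the KO libraries. The values of controls 1 and 2 are not whole, so they may come from wider windows than the others. The part of window size in this difference was not tested.

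Shank3 had the opposite arrangement in its background. At the region just after the annotated start inside its span, the scaled background was 2.61 ± 0.330 in the controls and 1.27 ± 0.421 in the KO libraries. Every control lay above every KO library, as at 22.4% of the 402 regions. Those values were taken at the strongest summit of each library, which is the second position in control 1 and KO 2. At the first position the scaled background was 2.32, 2.24 and 2.74 in controls 1, 2 and 3. It was 1.61 in KO 1 and 1.39 in KO 3, below every control, and KO 2 had no summit there. At the second position the scaled background was 2.86 and 4.45 in controls 1 and 2 and 2.15, 0.797 and 3.96 in KO 1, 2 and 3, and the groups overlapped. Pileup at the strongest summit was 26, 43 and 35 in controls 1, 2 and 3 and 24, 25 and 41 in KO 1, 2 and 3, or 45.4 ± 9.70 and 20.03 ± 10.4 when scaled. The folds overlapped. At the Homer1 region the scaled pileup was 105 ± 8.51 in the controls and 50.1 ± 19.3 in the KO libraries, and at the Shank1 region 75.4 ± 19.4 and 35.2 ± 11.6, with overlapping backgrounds at both. The KO pull-downs were deeper and, except in control 1, duplicates at a position were removed. The part of depth and duplicate removal in the scaled pileups was not tested.

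**Figure D4:**
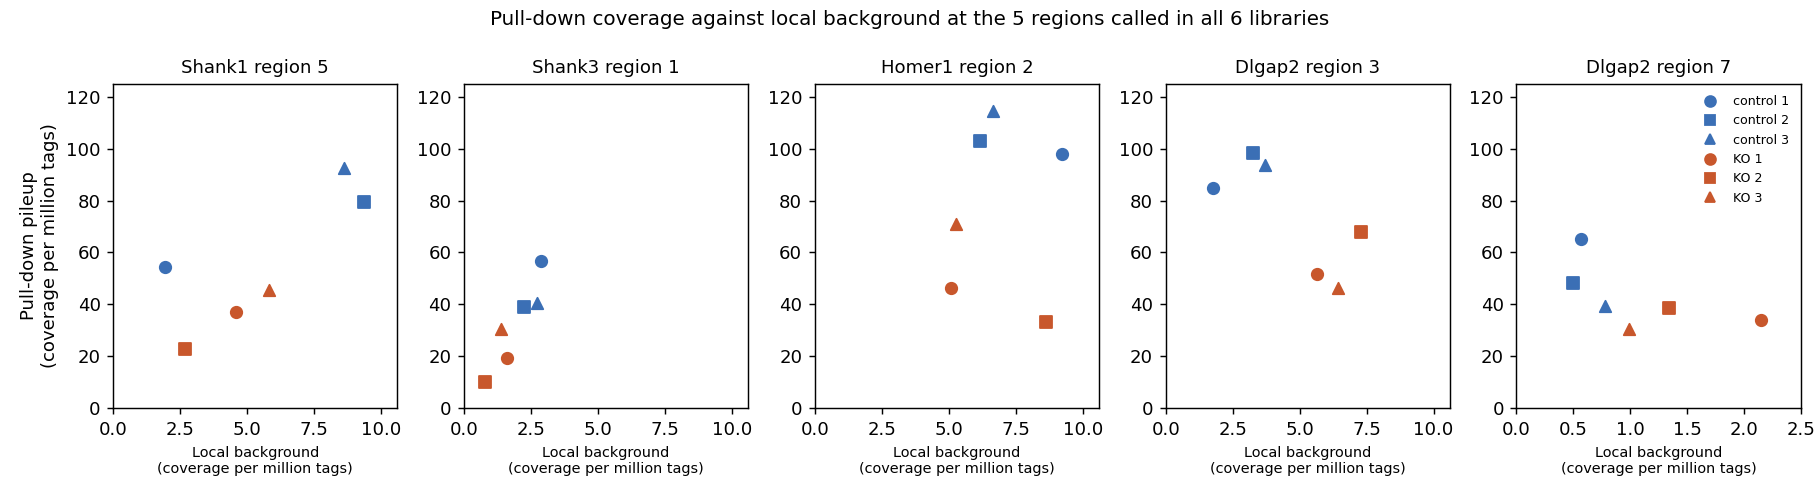
Pull-down pileup (vertical axis, coverage scaled to 1000000 pull-down tags) against local background (horizontal axis, coverage scaled to 1000000 input tags, with a narrower range in the last panel) at the 5 scaffold regions called in all 6 libraries, 1 symbol per library. In every panel the controls (blue) stand higher than the KO libraries (red), and in both Dlgap2 panels the KO libraries lie to the right.

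Dlgap1, the longest gene of the set at 852 kb (chr17:69969073-70821413, plus strand), encodes a scaffold protein that binds Dlg and Shank proteins. Peaks numbered 3, 1 and 2 in controls 1, 2 and 3 and 1, 14 and 0 in KO 1, 2 and 3, so 1 library gave 14 of its 21 peaks. The mean was 2 ± 1 in the controls and 5 ± 7.81 in the KO libraries. Without KO 2 the difference changed sign, from 3 more peaks in the KO libraries to 1.5 fewer. Dlgap1 and Dlgap2 together had 30 regions, of which 20 were called in KO 2 alone, at folds of 4.12 to 11.5. The recurrent Dlgap1 region, chr17:70699379-70699816, was called at 6.37 in control 1, 9.38 in control 3, 6.88 in KO 1 and 13.9 in KO 2. It also lies in the span of the long non-coding RNA gene Gm36746, and the peak lists do not give a strand, so the source transcript cannot be told apart. The pileup there was only 6 to 33.

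Dlgap3, the family member enriched in striatum, had 7 regions in 68.7 kb (chr4:127168305-127237022, plus strand). Peaks numbered 0, 5 and 4 in controls 1, 2 and 3 and 2, 3 and 3 in KO 1, 2 and 3. Controls 2 and 3 lay above every KO library and control 1 below them all, so the groups overlapped only through control 1. The region chr4:127169645-127170004 lay 1637 bp after the upstream end of the gene span. Its fold was 6.13 and 6.95 in controls 2 and 3 and 5.12, 2.89 and 7.71 in KO 1, 2 and 3, of which 2.89 was the lowest of all scaffold peaks. At the other end, chr4:127236211-127236980 had its strongest summit 504 bp before the 3′ end. It was called at 5.28 and 8.71 in controls 2 and 3 and 6.90 and 4.66 in KO 2 and 3. The peaks of KO 2 (summit 127236826) and KO 3 (summit 127236286) did not overlap, so these folds do not belong to 1 shared site. A region at chr4:127195437-127195621 was called in 3 libraries at 4.82 to 6.17, with some of the highest pileups of the set, 50 in control 3, 85 in KO 2 and 70 in KO 3.

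Dlgap4, a further scaffold protein of this family, had 7 regions in 151 kb (chr2:156613633-156764363, plus strand). It gave 2, 4 and 2 peaks in controls 1, 2 and 3 and 3, 2 and 2 in KO 1, 2 and 3. The recurrent region chr2:156701214-156701436 had a fold of 6.77, 4.93 and 7.30 in the controls, 4.66 in KO 2 and 6.04 in KO 3, with no call in KO 1. It lies also in the span of the long non-coding RNA gene Gm34111. At the upstream end, chr2:156613817-156614009 had its strongest summit 257 bp inside the span and was called in control 2 (6.66), KO 1 (5.79) and KO 3 (6.23).

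Regions just after an annotated start, with the upstream end of the gene span counted as a start, were found in 3 of these genes, Homer1, Shank3 and Dlgap4. For Dlgap4 the start was the end of the span. Among the 41 regions of the members whose strand was known, 4 had their strongest summit within 1 kb after an annotated start (9.76%), against 25.7% for regions in protein-coding genes with a known start. Among those in 4 or more libraries, it was 3 of 8 (37.5%) against 47.3%. Within 3 kb of the 3′ end there were 3 of 41 (7.32%) against 13.6%. Whether the other regions fall in exons or introns was not determined, because exon positions were not used here.

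A pattern shared by 4 genes was a call in controls 2 and 3 alone. It occurred once each in Shank1, Shank3, Dlgap1 and Dlgap3, or in 6.15% of scaffold regions against 2.25% of all regions. In Dlgap1 and Dlgap3 these regions lay 3100 and 3175 bp before the 3′ end, in Shank1 3232 bp from the upper-numbered end, and in Shank3 12345 bp before the 3′ end. Control 1 did not call them, so none was shared by the whole control group.

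Of 31 other postsynaptic scaffold and signalling genes, 28 had a peak, against 26.2% of protein-coding genes. Of those 28, 12 had one in all 6 libraries, against 8.11% of all genes with a peak. Their median span was 81.1 kb, against 17.1 kb for protein-coding genes, and the part of length was not tested. These 12 included Camk2a and Camk2b, which encode the subunits of the synaptic calcium-dependent kinase, Dlg2, a Dlg family scaffold, and Ppp1r9b, which encodes spinophilin. In controls 1, 2 and 3 the genes with a peak numbered 19, 26 and 25, and in KO 1, 2 and 3 they numbered 18, 26 and 19, so the groups overlapped. Dlg3, Dlgap5 and Sharpin had no peak, and Cttn was marked in KO libraries alone, by 1 peak in KO 2. Of all genes with a peak, 34.0% were marked in KO libraries alone. None of the 28 listed genes had a peak in all libraries of one genotype and none of the other. By number of peaks, every KO library exceeded every control for 0 of the 28, and the reverse held for 0. Among all genes with a peak these shares were 2.42% and 0.946%. The median change in number of peaks, KO minus control, was 0, beside 0.333 for all genes with a peak.

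Of the 10 receptors, channels and partners that bind Homer, 9 had a peak, against 26.2% of protein-coding genes, with a median span of 395 kb. Itpr1, the main neuronal inositol trisphosphate receptor, was the 1 of these 9 with a peak in every library, against 8.11% of genes with a peak. The strongest Itpr1 peak of each library ran from 9.65 to 20.2-fold. Grm5, the metabotropic receptor of striatal neurons, had 1 peak in each control and 2 in KO 2, and none in KO 1 or KO 3. The partners with a peak numbered 6, 5 and 5 in controls 1, 2 and 3 and 4, 8 and 5 in KO 1, 2 and 3, with overlap. Trpc1 had none, and Itpr3 had 1, in KO 3.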

How the data were processed

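The 6 deposited peak lists, 1 per pull-down, were used. GRCm38, HISAT2 2.1.0, cutadapt 2.8 and MACS2 2.2.6 are named in the submitters' processing notes. Per the file headers, the authors called peaks in each library with the matched input and a q-value cutoff of 0.01, and kept all duplicates in control 1 but 1 tag per position elsewhere. Each deposited peak has a pileup (a signal), a fold enrichment (a ratio), and the −log10 of its p-value and q-value. Local background was computed as (pileup + 1) / fold − 1. Its lowest value equalled the genome-wide background in each list, and scaled to the input it was a whole number of tags (within 0.01) for 59.7% of peaks.

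Peaks were merged into regions at 1 bp of overlap, and 2 summits that lay in over 3 genes each were not assigned. All scaffold genes are named. Their regions are named when called in 4 or more libraries or in all 3 libraries of 1 genotype and none of the other, and otherwise the strongest of a gene is named. Regions given outside that rule were chosen after their values were seen. The members and lists were chosen with earlier results of these data known. Overlapping genes cannot be told apart. RefSeq promoter windows matched 7 members, all but Shank1, Shank2 and Dlgap2. Alternatives were other overlap, fold and q-value limits, equal list lengths, left-out libraries and a replicate block. Scripts ran in Python 3.11.15 with pandas 2.3.3. The permutation test was tried on simulated data whose changed genes separated the groups fully and by many peaks. Small differences were not covered. Inputs entered only through the calling.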

Additional observations from a re-analysis of the deposited data

How the results depend on the processing

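The 8 scaffold genes with a peak stayed 8 when any 1 library was left out, and those with a peak in every library numbered 5 to 6. Of 130 alternative values for counts and fold differences, 119 stayed within 1 SD of the libraries (fold differences) or 1.5 times the count, and 11 moved further. Of the 119, 20 were counts that stayed at 0. No fold difference changed sign, and counts could not. The 65 regions fell to 42 with lists of equal length, to 39 to 66 when 1 library was left out (39 without KO 2) and to 32 without both control 1 and KO 2. The last setting, like the peak nearest the shared summit, was chosen after seeing the data. The 5 regions in every library became 2 when summits had to lie within 100 bp, 4 at a fold of at least 4, where KO 2 loses the Homer1 region, and 5 to 7 when 1 library was left out. Regions in every KO and no control library numbered 0 to 1 with 1 library left out and 1 without control 1 and KO 2. The opposite kind numbered 0 to 4 (4 without control 1) and 6. The control minus KO difference in fold, with 1 library left out, was 12.9 to 15 and 5.30 to 12.3 at the Dlgap2 regions (lowest at the second without control 2), 2.81 to 6.92 at Homer1 (lowest without KO 2) and 1.49 to 4.50 at Shank1 (lowest without control 1, and 0.459 at the shared summit). At Shank3 it was 1.12, and 0.0138 without KO 1, 0.171 without KO 2 and 3.19 without KO 3.

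Of 96 alternative values for peaks per gene, KO minus control, 79 kept their direction, 6 became 0 and 11 reversed. The 79 include the 8 values of the replicate block, which leaves the difference as it was and so could not reverse it. Dlgap3 and Dlgap4 went from -0.333 to 0.333 each at a fold of at least 4, and Shank1 from 0.667 to -1.67 with lists of equal length. With 1 library left out, the ranges were -1.5 to 2 for Shank1, -1.5 to 5.5 for Dlgap1, -0.5 to 3.5 for Dlgap2, -1.83 to 0.667 for Dlgap3 and -0.667 to 0.333 for Dlgap4. Without control 1 and KO 2 they were -0.5 for Shank1 and -1 for Dlgap1. The cause was not tested. With the replicate number as a block (replicate block, 3 same-numbered pairs), the differences are the same and exact sign-flip p-values ran from 0.5 to 1, where the smallest possible is 0.25. The numbers share no stated origin. The part of depth in absent calls was not tested.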
